A study of Mus musculus with 24 samples.

Results

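The solute carrier family 25 (Slc25) is the family of carriers that move metabolites across the inner mitochondrial membrane. The genes described here are all those in the deposited annotation whose symbol is Slc25a followed by a number, apart from the adenine nucleotide translocases Slc25a4 and Slc25a5 and the carnitine-acylcarnitine carrier Slc25a20. The rule used no measured value and gave 42 of the 20961 genes listed. Of these, 41 were among the 17203 genes that passed the filter on low counts, and the ornithine carrier Slc25a2 did not. Messenger RNA was sequenced from hearts of 3 inbred mouse strains, all labelled wild type and untreated. NZO/HlLtJ is a strain prone to obesity and diabetes, CAST/EiJ is a wild-derived strain, and C57BL/6J is the common laboratory strain, against which the other strains are set. Males and females of each ate a diet with 44% fat and fiber, which the labels call high in fat and sugar, or a control diet with 10% fat and fiber. The diets began at week 6 of age, and the heart was taken at week 15. Every combination of strain, sex and diet (12 in all) has 2 libraries, so a strain has 8 libraries and a diet within a strain has 4.

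A carrier of this family is a nuclear-encoded protein that spans the inner membrane and alternates between facing the intermembrane space and the matrix, exchanging one solute for another or moving it with protons. The heart depends on these carriers for oxidative work: the phosphate carrier supplies ATP synthase, and the oxoglutarate and the aspartate-glutamate carriers form the malate-aspartate shuttle that brings the electrons of cytosolic NADH into the matrix. Others import coenzyme A, NAD, iron or glutathione for matrix enzymes. Some members are known for other tissues, such as citrate export in fat-making cells, mitoferrin 1 in red cell precursors and Slc25a47 in liver. Some lie elsewhere, as Slc25a46 in the outer mitochondrial membrane and Slc25a17 in peroxisomes.

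The expected counts of a library summed to between 30205073 and 52254058, and the 42 genes held 0.237% to 0.302% of them. Levels are given as CPM, the usual unit of read counts set against the library size, here after scaling by trimmed mean of M-values (TMM). Differences are log2 fold changes with their standard error (SE) from edgeR's quasi-likelihood test, and a gene is called where its p, adjusted by the Benjamini-Hochberg method over all genes tested, is under 0.05. The labels do not state whether paired libraries within a group are from different mice, so the p-values cover the variation seen here, which may be technical. Mitochondrially encoded genes took 20.9% to 23.9% of counts in NZO/HlLtJ, 20.2% to 23.4% in CAST/EiJ and 25.8% to 28.8% in C57BL/6J, so C57BL/6J stood apart. With library sizes and scaling taken without them, the members called between strains were the same, 25 in CAST/EiJ against C57BL/6J, 14 in NZO/HlLtJ against C57BL/6J and 28 in NZO/HlLtJ against CAST/EiJ. The hearts carried the markers of their tissue, with 10 cardiomyocyte markers summing to 54058 to 67714 CPM, and Xist lay at 312 to 509 CPM in libraries labelled female and at 0.190 to 2.23 CPM in those labelled male. In whole tissue, fewer cells of a type and less RNA per cell cannot be told apart. Summed fibroblast markers were at 1542 to 1911 CPM in NZO/HlLtJ, 967 to 1310.1 CPM in CAST/EiJ and 1101 to 1205 CPM in C57BL/6J. In the same order, skeletal muscle markers (6 of 8 listed) were at 2557 to 4824, 1311 to 1604 and 1332 to 1735 CPM, and smooth muscle and pericyte markers at 697 to 841, 511 to 622 and 738 to 932 CPM. Ckm (1078 to 1732 CPM) and Acta1 (93.7 to 3433 CPM over all libraries) gave nearly all of the skeletal muscle sum. Acta1 was highest in an NZO/HlLtJ male on 44% fat. Actn3, Tnni2, Tnnt3 and Myh4 reached at most 1.23 CPM in any library. The part of these cell types in the carrier differences was not tested. The effect of sequence differences between strains on read assignment was not tested either.

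Per length, the phosphate carrier and the oxoglutarate carrier were the most abundant of the 42. The length is that of all annotated exons of a gene together, which can exceed that of its main transcript. The order per length therefore depends on the annotation. Over all libraries Slc25a3, which imports phosphate for ATP synthesis, averaged 210.1 CPM per kilobase of exons, and Slc25a11, which exchanges oxoglutarate for malate, averaged 162. They were followed by Slc25a34, whose substrate is less settled, at 43.5 CPM per kilobase, the glutathione carrier Slc25a39 at 36.7, and the aspartate-glutamate carriers Slc25a13 (citrin) at 35 and Slc25a12 (aralar) at 29.8. Slc25a46, Slc25a51, Slc25a42 and Slc25a23 came next, at 13.5, 12.4, 10.9 and 10.2 CPM per kilobase. Neighbours in this order had library ranges that overlapped, except that all libraries placed Slc25a3 above Slc25a11, Slc25a11 above Slc25a34 and Slc25a12 above Slc25a46. In CPM not divided by length, 23 members averaged 10 or more and 36 averaged 1 or more, of which 33 stayed above 1 CPM in every library. The 6 under 1 CPM were Slc25a2, Slc25a18, Slc25a21, Slc25a31, Slc25a43 and Slc25a48, and the lowest per length was Slc25a48 at 0.0379 CPM per kilobase.

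**Figure D1:**
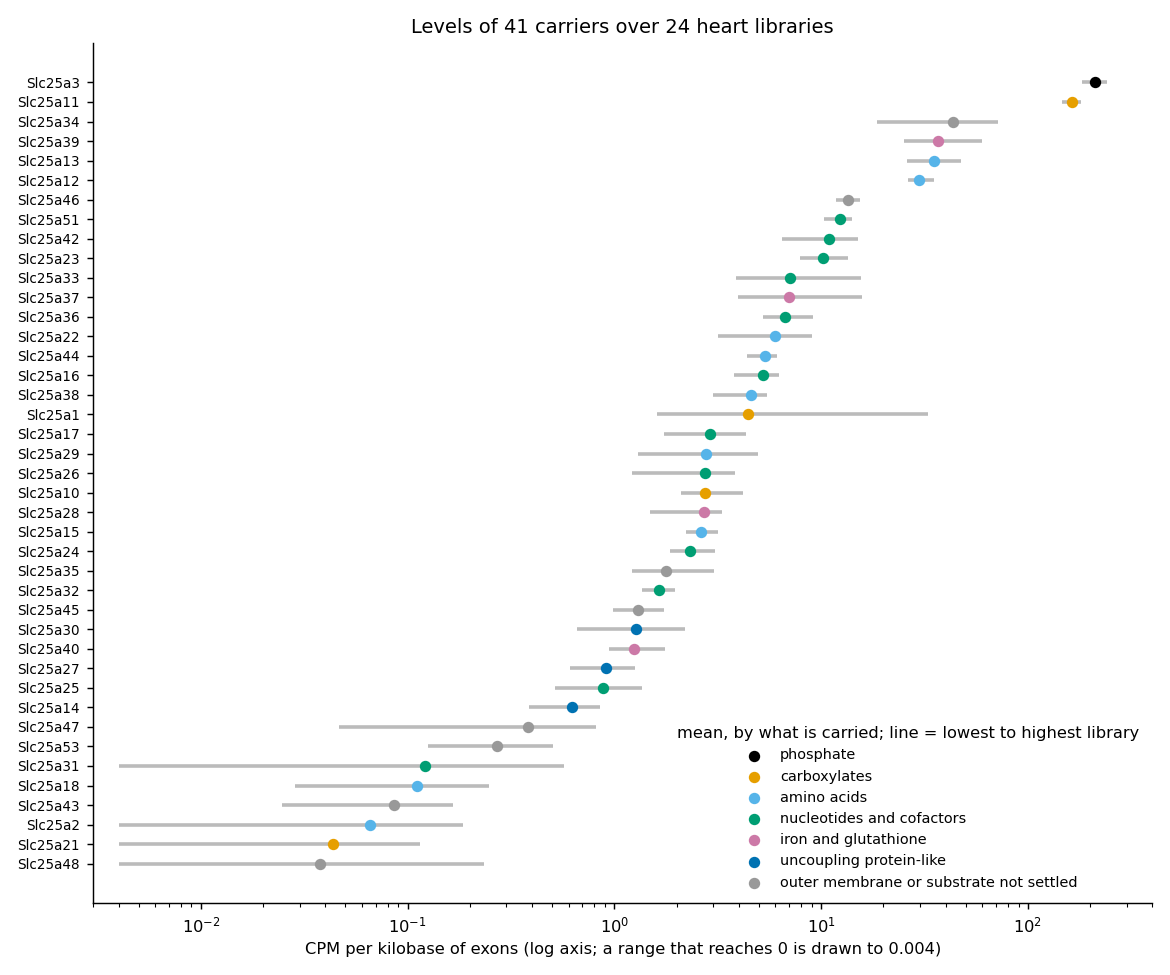
Mean level of 41 carriers over 24 libraries, in CPM per kilobase of exons on a log axis, coloured by what is carried; the line runs from the lowest to the highest library. Slc25a3 (210.1) and Slc25a11 (162) stand above the rest, and among members at 1 CPM or more the widest range on the log axis is that of Slc25a1.

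The members also differed in how closely the 2 libraries of a group agreed. Among the 36 members at 1 CPM or more, the pooled SD within groups on the log2 scale was 0.0497 for Slc25a3, the lowest, with a median of 0.158. It was above 0.3 for 9 members and highest for the citrate carrier Slc25a1 (0.958) and the mitoferrin Slc25a37 (0.585), the iron importer of red cell precursors.

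The promoters of 4 members described below are shown: Slc25a34 and Slc25a42, which were lower in CAST/EiJ and had the smallest p-values for diet, and Slc25a29 and Slc25a47, neighbours on opposite strands of chromosome 12. In the authors' annotation the 2 genes lie 15245 bases apart, whereas in GENCODE M21 Slc25a47 begins farther upstream, 162 bases from Slc25a29 and within the Slc25a29 promoter shown; the Slc25a47 promoter shown is that of the RefSeq start. Each sequence is 250 bases before to 50 bases after the RefSeq start on GRCm38.p6, 5′ to 3′ on the gene's own strand. The capitals mark CCAAT boxes (CCAAT, or ATTGG on the other strand) and, in Slc25a34 alone, AAGGTCA (here TGACCTT on the other strand). AAGGTCA was searched for as a possible site of estrogen-related receptors.
Slc25a34, chr4:141623785-141624084, minus strand: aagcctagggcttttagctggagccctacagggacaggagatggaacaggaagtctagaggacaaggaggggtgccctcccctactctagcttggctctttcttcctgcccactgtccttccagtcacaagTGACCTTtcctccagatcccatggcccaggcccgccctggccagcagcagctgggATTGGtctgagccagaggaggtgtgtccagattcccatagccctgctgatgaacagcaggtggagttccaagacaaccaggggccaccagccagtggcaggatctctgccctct
Slc25a42, chr8:70212232-70212531, minus strand: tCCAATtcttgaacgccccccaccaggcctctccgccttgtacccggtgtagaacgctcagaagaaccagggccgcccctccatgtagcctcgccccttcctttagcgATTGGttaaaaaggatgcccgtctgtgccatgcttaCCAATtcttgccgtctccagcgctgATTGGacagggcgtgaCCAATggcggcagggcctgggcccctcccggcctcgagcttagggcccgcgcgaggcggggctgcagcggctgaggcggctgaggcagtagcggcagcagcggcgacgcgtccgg
Slc25a29, chr12:108835827-108836126, minus strand: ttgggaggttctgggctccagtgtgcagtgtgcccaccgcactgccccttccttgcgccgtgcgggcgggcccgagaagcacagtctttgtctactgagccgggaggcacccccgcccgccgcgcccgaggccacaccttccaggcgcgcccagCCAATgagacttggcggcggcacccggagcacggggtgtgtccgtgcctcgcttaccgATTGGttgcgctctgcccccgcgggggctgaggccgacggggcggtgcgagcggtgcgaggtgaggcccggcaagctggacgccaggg
Slc25a47, chr12:108850879-108851178, plus strand: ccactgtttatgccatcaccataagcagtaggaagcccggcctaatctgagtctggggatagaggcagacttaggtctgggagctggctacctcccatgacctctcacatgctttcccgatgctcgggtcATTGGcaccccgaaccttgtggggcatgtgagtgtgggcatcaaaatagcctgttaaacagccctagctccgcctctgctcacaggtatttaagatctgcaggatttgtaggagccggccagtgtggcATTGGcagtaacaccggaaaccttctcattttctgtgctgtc
The table held 42 promoters of 32 members, some genes having more than 1, and 7 motifs were searched on both strands. The CCAAT box stood in 21 of these 42 promoters (18 genes), and in 37.4% of all 32851 promoters in the table. The E-box CACGTG stood in 8 of the 42 promoters (7.15% of all), the cyclic AMP response element TGACGTCA in 2, of Slc25a25 and Slc25a36 (1.79% of all), and AAGGTCA in 1, of Slc25a34 (4.72% of all). TCAAGGTCA, which holds AAGGTCA within it, was in none of the 42 (0.423% of all). The direct repeat of AGGTCA with 1 base of any kind between (DR1) was in none (0.0396% of all), nor was the NRF1 palindrome of GCGCA followed by its reverse complement (0.971% of all). A match is a string of letters in this window and was not tested as a binding site.

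The strain comparisons ask how the hearts of a diabetes-prone and a wild-derived strain differ from those of C57BL/6J and from each other. Between CAST/EiJ and C57BL/6J, 25 of the 41 members tested were called, 14 higher and 11 lower in CAST/EiJ, where 58.8% of all genes tested were called (29.1% higher, 29.7% lower). Between NZO/HlLtJ and C57BL/6J, 14 were called, 9 higher and 5 lower in NZO/HlLtJ, against 35.5% of all genes (17.9% higher, 17.6% lower). Between NZO/HlLtJ and CAST/EiJ, 28 were called, 15 higher and 13 lower in NZO/HlLtJ, against 60.3% of all genes (30.5% higher, 29.8% lower). These shares lie near those of all genes, so the counts alone say nothing particular about the carriers. The median absolute log2 fold change of the members was 0.403 for CAST/EiJ minus C57BL/6J, 0.148 for NZO/HlLtJ minus C57BL/6J and 0.395 for NZO/HlLtJ minus CAST/EiJ, beside 0.310, 0.180 and 0.314 over all genes. The comparisons share libraries, and each is given with its own values.

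**Figure D2:**
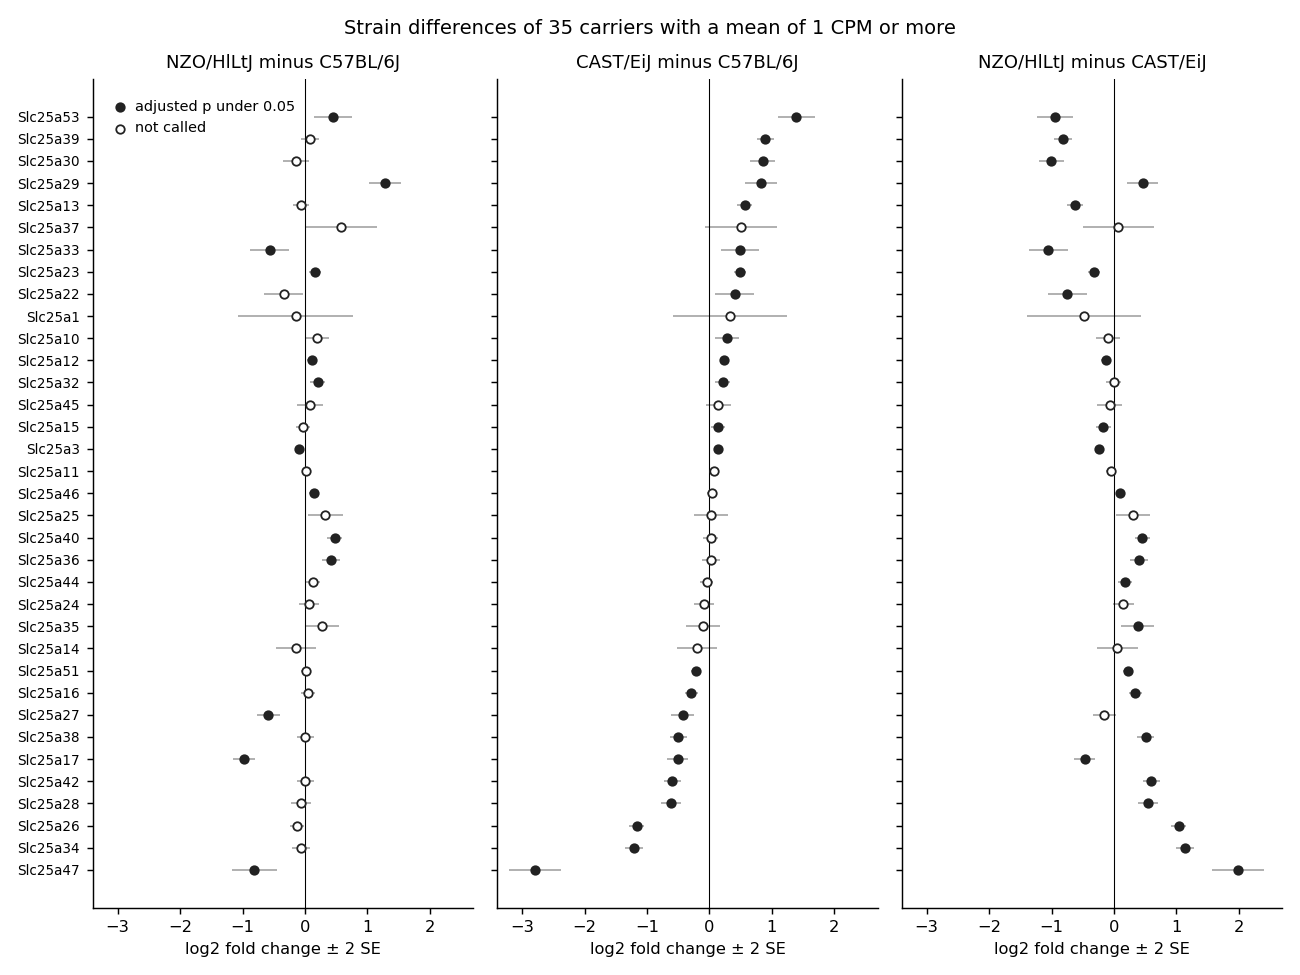
Log2 fold change with ± 2 SE of 35 carriers at a mean of 1 CPM or more, for NZO/HlLtJ minus C57BL/6J, CAST/EiJ minus C57BL/6J and NZO/HlLtJ minus CAST/EiJ; filled points have an adjusted p under 0.05 by edgeR. In the middle panel Slc25a47 (-2.80), Slc25a34 (-1.20) and Slc25a26 (-1.16) lie farthest to the left and Slc25a53 (1.39) farthest to the right.

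The libraries' identifiers fall into 3 number ranges in the titles, which may mark batches, and NZO/HlLtJ has no library in the first. In CAST/EiJ and C57BL/6J the 2 libraries of a group lie in different ranges, and in NZO/HlLtJ in the same range. The spread within groups therefore includes any difference between ranges in CAST/EiJ and C57BL/6J but not in NZO/HlLtJ. All 25 members called between CAST/EiJ and C57BL/6J kept their sign both within the first range and in the other 2 pooled. So did the 14 called between NZO/HlLtJ and C57BL/6J and the 28 called between NZO/HlLtJ and CAST/EiJ in the other 2 pooled. Slc25a34, for example, had a difference of -1.17 in mean log2 CPM between CAST/EiJ and C57BL/6J within the first range and -1.24 in the others. Slc25a39 had 0.81 and 0.98. These checks reused libraries that gave the calls, and all 8 NZO/HlLtJ libraries lie in the other 2 ranges. The same sign was therefore likely beforehand, and the checks are not an independent test. The other 2 ranges were not compared separately. In 15 members the 8 libraries of CAST/EiJ did not overlap the 8 of C57BL/6J, against 27.0% of all genes. In turn, 6 members had no overlap between NZO/HlLtJ and C57BL/6J (12.2% of all genes) and 17 had none between NZO/HlLtJ and CAST/EiJ (26.8%).

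The phosphate carrier was higher in CAST/EiJ than in C57BL/6J, as were 2 of the 4 carboxylate carriers, Slc25a10 and Slc25a21. The other carboxylate carriers, Slc25a11 and Slc25a1, were not called (29.1% of all genes were higher). Slc25a3 had a lowest, median and highest level of 1014, 1083 and 1147 CPM in NZO/HlLtJ, 1157, 1275 and 1341 CPM in CAST/EiJ and 1077, 1179 and 1229 CPM in C57BL/6J. By edgeR this gave a log2 fold change of 0.13 (SE 0.03, adjusted p 0.00127) in CAST/EiJ against C57BL/6J, -0.10 (SE 0.03, adjusted p 0.0123) in NZO/HlLtJ against C57BL/6J and -0.23 (SE 0.03, adjusted p 2.31e-06) in NZO/HlLtJ against CAST/EiJ, where the 8 libraries did not overlap. It was thus called in all 3 comparisons, with small differences. On library totals without TMM that of NZO/HlLtJ against C57BL/6J was -0.05 (adjusted p 0.150), and with the identifier range as a block its adjusted p was 0.0609. Slc25a11 had 319, 342 and 365 CPM in NZO/HlLtJ, 325, 359 and 382 CPM in CAST/EiJ and 310.3, 338 and 365 CPM in C57BL/6J. It was called in no strain comparison, its log2 fold change being 0.08 (SE 0.04) in CAST/EiJ and 0.02 (SE 0.04) in NZO/HlLtJ against C57BL/6J. The dicarboxylate carrier Slc25a10, which exchanges malate or succinate for phosphate, averaged 9.64 ± 1.31 CPM in NZO/HlLtJ, 10.3 ± 1.84 CPM in CAST/EiJ and 8.47 ± 1.07 CPM in C57BL/6J (SD, n = 8 each). It was higher in CAST/EiJ than in C57BL/6J, at 0.28 (SE 0.09, adjusted p 0.0156). Without 1 library, the CAST/EiJ male on 10% fat numbered 1, it was not called (log2 0.19, adjusted p 0.0664). The citrate carrier Slc25a1 was called in no strain comparison, at 0.33 (SE 0.46) in CAST/EiJ against C57BL/6J. The oxodicarboxylate carrier Slc25a21 had 39 counts over the 8 libraries of NZO/HlLtJ, 144 over those of CAST/EiJ and 21 over those of C57BL/6J. It was higher in CAST/EiJ than in C57BL/6J and lower in NZO/HlLtJ than in CAST/EiJ (adjusted p 0.000203 and 0.00144), with fitted folds at such counts depending on the prior count.

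The 8 amino acid carriers tested gave 5 higher and 1 lower in CAST/EiJ against C57BL/6J, 2 higher and 0 lower in NZO/HlLtJ against C57BL/6J, and 3 higher and 5 lower in NZO/HlLtJ against CAST/EiJ. Of all genes, 29.1% were higher and 29.7% lower in the first comparison, 17.9% and 17.6% in the second, and 30.5% and 29.8% in the third. The pair of aspartate-glutamate carriers moved the same way in CAST/EiJ by different amounts. Slc25a13 had a lowest, median and highest level of 100.2, 109 and 129 CPM in NZO/HlLtJ, 162, 170.3 and 181 CPM in CAST/EiJ and 98.8, 115 and 138 CPM in C57BL/6J, and all 8 libraries of CAST/EiJ lay above all others. Its log2 fold change was 0.56 (SE 0.06, adjusted p 6.63e-07) in CAST/EiJ against C57BL/6J and -0.62 (SE 0.06, adjusted p 1.74e-07) in NZO/HlLtJ against CAST/EiJ. Slc25a12, known as the main form of heart and muscle, had 195, 212 and 244 CPM in NZO/HlLtJ, 211, 244 and 259 CPM in CAST/EiJ and 192, 202 and 212 CPM in C57BL/6J. In CPM not divided by length, Slc25a12 averaged 219 over all libraries, beside 133 for Slc25a13. Per length it averaged 29.8 CPM per kilobase, beside 35 for Slc25a13, with overlapping library ranges. The exons counted as length were 7342 bases for Slc25a12 and 3798 for Slc25a13, so the order of the 2 depends on the length used. The log2 fold change of Slc25a12 was 0.24 (SE 0.04, adjusted p 1.82e-05) in CAST/EiJ against C57BL/6J and 0.10 (SE 0.04, adjusted p 0.0342) in NZO/HlLtJ against C57BL/6J. The second was lost when any of 10 single libraries was left out. The mitochondrial glutamate carrier Slc25a22 had 19, 27.3 and 40.0 CPM in NZO/HlLtJ, 33.3, 46.2 and 54.2 CPM in CAST/EiJ and 29.2, 33.2 and 46.8 CPM in C57BL/6J. It was lower in NZO/HlLtJ than in CAST/EiJ, at -0.75 (SE 0.16, adjusted p 0.00109). It was higher in CAST/EiJ than in C57BL/6J, at 0.40 (SE 0.16, adjusted p 0.0415), a call lost when any of 14 single libraries was left out.

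Slc25a29, which carries basic amino acids such as arginine and lysine, was lowest in C57BL/6J. It had 5.06, 11.5 and 12.9 CPM in NZO/HlLtJ, 5.37, 7.66 and 8.18 CPM in CAST/EiJ and 3.39, 4.14 and 5.08 CPM in C57BL/6J as lowest, median and highest level. The log2 fold change was 1.28 (SE 0.13, adjusted p 3.79e-07) in NZO/HlLtJ and 0.82 (SE 0.13, adjusted p 2.91e-05) in CAST/EiJ against C57BL/6J. The CAST/EiJ and C57BL/6J libraries did not overlap, while 1 NZO/HlLtJ male on 44% fat, at 5.06 CPM, fell below the highest C57BL/6J library. The glycine carrier Slc25a38, which supplies heme synthesis, averaged 14 ± 0.785 CPM in NZO/HlLtJ, 9.87 ± 1.37 CPM in CAST/EiJ and 13.9 ± 0.697 CPM in C57BL/6J (SD, n = 8 each). It was lower in CAST/EiJ than in C57BL/6J, at -0.50 (SE 0.07, adjusted p 3.35e-06), with no overlap of libraries. The branched-chain amino acid carrier Slc25a44 was called in NZO/HlLtJ against CAST/EiJ, at 0.18 (SE 0.05, adjusted p 0.00827). The ornithine carrier Slc25a15 was called in CAST/EiJ against C57BL/6J (log2 fold change 0.14, SE 0.06, adjusted p 0.0478) and in NZO/HlLtJ against CAST/EiJ (log2 fold change -0.17, SE 0.06, adjusted p 0.0155). The first was lost when any of 16 single libraries was left out. The second was lost without 1 CAST/EiJ female on 44% fat, numbered 2 (log2 fold change -0.14, adjusted p 0.0505), and with the identifier range as a block (adjusted p 0.0635). The glutamate carrier Slc25a18 had 40, 99 and 62 counts in all over the libraries of NZO/HlLtJ, CAST/EiJ and C57BL/6J, and was lower in NZO/HlLtJ than in CAST/EiJ (adjusted p 0.00297). Slc25a2 had 22, 23 and 37 counts and was not tested.

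Among the 13 nucleotide and cofactor carriers, 3 were higher and 6 lower in CAST/EiJ against C57BL/6J, 4 higher and 2 lower in NZO/HlLtJ against C57BL/6J, and 6 higher and 3 lower in NZO/HlLtJ against CAST/EiJ, beside the same shares of all genes. The S-adenosylmethionine carrier Slc25a26, which supplies the methyl donor of the matrix, was lowest in CAST/EiJ. It had a lowest, median and highest level of 13.1, 15.4 and 18 CPM in NZO/HlLtJ, 5.87, 7.58 and 8.69 CPM in CAST/EiJ and 14.7, 16.9 and 18.4 CPM in C57BL/6J, so that no CAST/EiJ library reached any other. By edgeR the log2 fold change was -1.16 (SE 0.06, adjusted p 4.1e-12) in CAST/EiJ against C57BL/6J and 1.04 (SE 0.06, adjusted p 2.11e-11) in NZO/HlLtJ against CAST/EiJ. The coenzyme A carrier Slc25a42 had 64.3, 72.2 and 86.3 CPM in NZO/HlLtJ, 38.6, 49 and 57.6 CPM in CAST/EiJ and 62.6, 70.8 and 89.9 CPM in C57BL/6J. It too was lower in CAST/EiJ than in C57BL/6J, at -0.59 (SE 0.07, adjusted p 9.73e-07), again with no overlap. Its difference between NZO/HlLtJ and C57BL/6J was 0.00 (SE 0.07).

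Other cofactor carriers that fell in CAST/EiJ relative to C57BL/6J were the coenzyme A-linked carrier Slc25a16 (log2 fold change -0.29, SE 0.05, adjusted p 0.000123) and the NAD carrier Slc25a51 (log2 fold change -0.21, SE 0.04, adjusted p 0.000124). Slc25a17, the peroxisomal carrier of coenzyme A, FAD and NAD, was lower in both strains than in C57BL/6J. The lowest, median and highest levels of Slc25a17 were 4.92, 5.70 and 6.50 CPM in NZO/HlLtJ, 5.65, 7.81 and 9.87 CPM in CAST/EiJ and 10.0, 11.2 and 12.3 CPM in C57BL/6J, and the C57BL/6J libraries lay above all others. By edgeR it differed by a log2 fold change of -0.98 (SE 0.09, adjusted p 3.47e-08) in NZO/HlLtJ and -0.51 (SE 0.08, adjusted p 3.8e-05) in CAST/EiJ against C57BL/6J. The pyrimidine nucleotide carriers differed from each other: Slc25a36 was higher in NZO/HlLtJ than in C57BL/6J, at 0.42 (SE 0.07, adjusted p 0.000210), while Slc25a33 was lower in NZO/HlLtJ, at -0.57 (SE 0.16, adjusted p 0.0107), and higher in CAST/EiJ, at 0.49 (SE 0.15, adjusted p 0.0129). Slc25a33 spread widely, with 7.29, 8.69 and 11.5 CPM in NZO/HlLtJ, 12, 17.6 and 29.3 CPM in CAST/EiJ and 9.60, 13.5 and 15.6 CPM in C57BL/6J. In NZO/HlLtJ against CAST/EiJ it was at -1.05 (SE 0.15, adjusted p 3.21e-05), with no overlap of libraries.

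The calcium-regulated ATP-magnesium/phosphate carrier Slc25a23 averaged 51.7 ± 2.90 CPM in NZO/HlLtJ, 64.5 ± 5.19 CPM in CAST/EiJ and 46.2 ± 2.30 CPM in C57BL/6J (SD, n = 8 each). It was higher in both strains than in C57BL/6J, at 0.48 (SE 0.05, adjusted p 6.05e-08) in CAST/EiJ and 0.16 (SE 0.05, adjusted p 0.0124) in NZO/HlLtJ. Its relatives Slc25a24 and Slc25a25, with the same known activity, were called in no strain comparison. Their log2 fold changes ran from -0.09 to 0.33. The folate and FAD carrier Slc25a32 was higher in both strains than in C57BL/6J, at 0.21 (SE 0.06, adjusted p 0.00520) in CAST/EiJ and 0.21 (SE 0.06, adjusted p 0.0105) in NZO/HlLtJ. Slc25a31, an adenine nucleotide translocase known from testis, had 159 counts over the 8 libraries of NZO/HlLtJ, 14 over those of CAST/EiJ and 59 over those of C57BL/6J. It was called in all 3 comparisons, with CAST/EiJ the lowest and NZO/HlLtJ the highest, and no fold is given for CAST/EiJ because 4 of its libraries held 0 counts.

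Of the members averaging 10 CPM or more, the largest rise relative to C57BL/6J was in the glutathione carrier Slc25a39, in CAST/EiJ. This carrier, which brings glutathione into mitochondria, had a lowest, median and highest level of 70.5, 81.1 and 104 CPM in NZO/HlLtJ, 132, 139 and 165 CPM in CAST/EiJ and 69.5, 77.8 and 82.4 CPM in C57BL/6J. All 8 CAST/EiJ libraries lay above all others, and the log2 fold change was 0.90 (SE 0.07, adjusted p 1.11e-08) in CAST/EiJ against C57BL/6J and -0.82 (SE 0.07, adjusted p 3.41e-08) in NZO/HlLtJ against CAST/EiJ. Its close relative Slc25a40 was instead higher in NZO/HlLtJ. It had 10.7, 12.6 and 14.7 CPM in NZO/HlLtJ, 7.86, 9.56 and 10.4 CPM in CAST/EiJ and 8.49, 9.04 and 10.0 CPM in C57BL/6J, and the log2 fold change was 0.47 (SE 0.06, adjusted p 5.23e-06) in NZO/HlLtJ against C57BL/6J and 0.02 (SE 0.06) in CAST/EiJ against C57BL/6J. The mitoferrin Slc25a28, the iron importer of most tissues, had 9.92, 11.3 and 11.7 CPM in NZO/HlLtJ, 5.56, 7.88 and 9.27 CPM in CAST/EiJ and 10.5, 11.8 and 12.4 CPM in C57BL/6J. It was lower in CAST/EiJ than in C57BL/6J, at -0.61 (SE 0.08, adjusted p 2.54e-06), with no overlap. The other mitoferrin, Slc25a37, was called in no strain comparison, at 0.58 (SE 0.29) in NZO/HlLtJ and 0.51 (SE 0.29) in CAST/EiJ against C57BL/6J.

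Of the 3 members named for likeness to uncoupling proteins, Slc25a30 and Slc25a27 differed between strains and Slc25a14 was not called. Slc25a30 had a lowest, median and highest level of 3.01, 4.25 and 6.53 CPM in NZO/HlLtJ, 6.22, 8.58 and 10.1 CPM in CAST/EiJ and 4.08, 4.61 and 5.57 CPM in C57BL/6J. It was higher in CAST/EiJ than in C57BL/6J, at 0.86 (SE 0.10, adjusted p 5.21e-07), and lower in NZO/HlLtJ than in CAST/EiJ, at -1.0 (SE 0.10, adjusted p 6.41e-08). Slc25a27 averaged 2.97 ± 0.421 CPM in NZO/HlLtJ, 3.29 ± 0.435 CPM in CAST/EiJ and 4.44 ± 0.374 CPM in C57BL/6J (SD, n = 8 each). Both other strains were below C57BL/6J, at -0.58 (SE 0.09, adjusted p 7.56e-05) in NZO/HlLtJ and -0.43 (SE 0.09, adjusted p 0.000618) in CAST/EiJ. Slc25a14 had a log2 fold change of -0.20 (SE 0.16) in CAST/EiJ and -0.14 (SE 0.16) in NZO/HlLtJ against C57BL/6J.

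Among the 8 members of the outer membrane or with a less settled substrate, 1 was higher and 2 lower in CAST/EiJ against C57BL/6J, 2 higher and 1 lower in NZO/HlLtJ against C57BL/6J, and 4 higher and 1 lower in NZO/HlLtJ against CAST/EiJ, again beside those shares. Slc25a34 (chromosome 4, 141618824-141623821, minus strand, GRCm38), the most abundant of them, was lowest in CAST/EiJ. Its lowest, median and highest levels were 119, 136 and 162 CPM in NZO/HlLtJ, 49.5, 57.7 and 78.7 CPM in CAST/EiJ and 121, 145 and 191 CPM in C57BL/6J. The highest CAST/EiJ library lay below the lowest of either other strain. The log2 fold change was -1.20 (SE 0.07, adjusted p 2.04e-10) in CAST/EiJ against C57BL/6J, 1.14 (SE 0.07, adjusted p 3.9e-10) in NZO/HlLtJ against CAST/EiJ and -0.06 (SE 0.07) in NZO/HlLtJ against C57BL/6J. Its relative Slc25a35 was called between NZO/HlLtJ and CAST/EiJ alone, at 0.38 (SE 0.13, adjusted p 0.0219), a call lost when any of 4 single libraries was left out. Of its exon bases, 31.3% overlap Rangrf on the other strand, and the handling of strand in counting is not given in the sources used here.

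Slc25a47, a carrier known from liver, was the member with the largest difference at 1 CPM or more. Slc25a47 had 0.708, 1.16 and 1.45 CPM in NZO/HlLtJ, 0.138, 0.302 and 0.352 CPM in CAST/EiJ and 1.62, 2.02 and 2.44 CPM in C57BL/6J as lowest, median and highest level, and the 3 strains did not overlap. It differed by a log2 fold change of -2.80 (SE 0.21, adjusted p 1.03e-09) in CAST/EiJ and -0.81 (SE 0.18, adjusted p 0.00163) in NZO/HlLtJ against C57BL/6J, and 1.99 (SE 0.21, adjusted p 1.5e-07) in NZO/HlLtJ against CAST/EiJ. These rest on 360 counts over the NZO/HlLtJ libraries, 94 over the CAST/EiJ libraries and 587 over the C57BL/6J libraries. In its neighbour Slc25a29, by contrast, C57BL/6J was the lowest strain and NZO/HlLtJ the highest. Slc25a53 (on chromosome X) had 1.28, 1.75 and 2.27 CPM in NZO/HlLtJ, 2.35, 3.46 and 4.03 CPM in CAST/EiJ and 0.993, 1.40 and 1.46 CPM in C57BL/6J. It was higher in both strains than in C57BL/6J, at 1.39 (SE 0.15, adjusted p 1.73e-07) in CAST/EiJ and 0.45 (SE 0.15, adjusted p 0.0285) in NZO/HlLtJ. The second was lost when any of 8 single libraries was left out. Slc25a46, which acts in the outer membrane in mitochondrial fission, was higher in NZO/HlLtJ than in C57BL/6J (log2 fold change 0.14, SE 0.04, adjusted p 0.00538) and than in CAST/EiJ (log2 fold change 0.10, SE 0.04, adjusted p 0.0192). The second was lost when any of 4 single libraries was left out, and without TMM (adjusted p 0.0582). Slc25a45 was called in no comparison, at a mean of 3.59 ± 0.526 CPM, and neither were Slc25a43 and Slc25a48, at 143 and 136 counts in all.

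**Figure D3:**
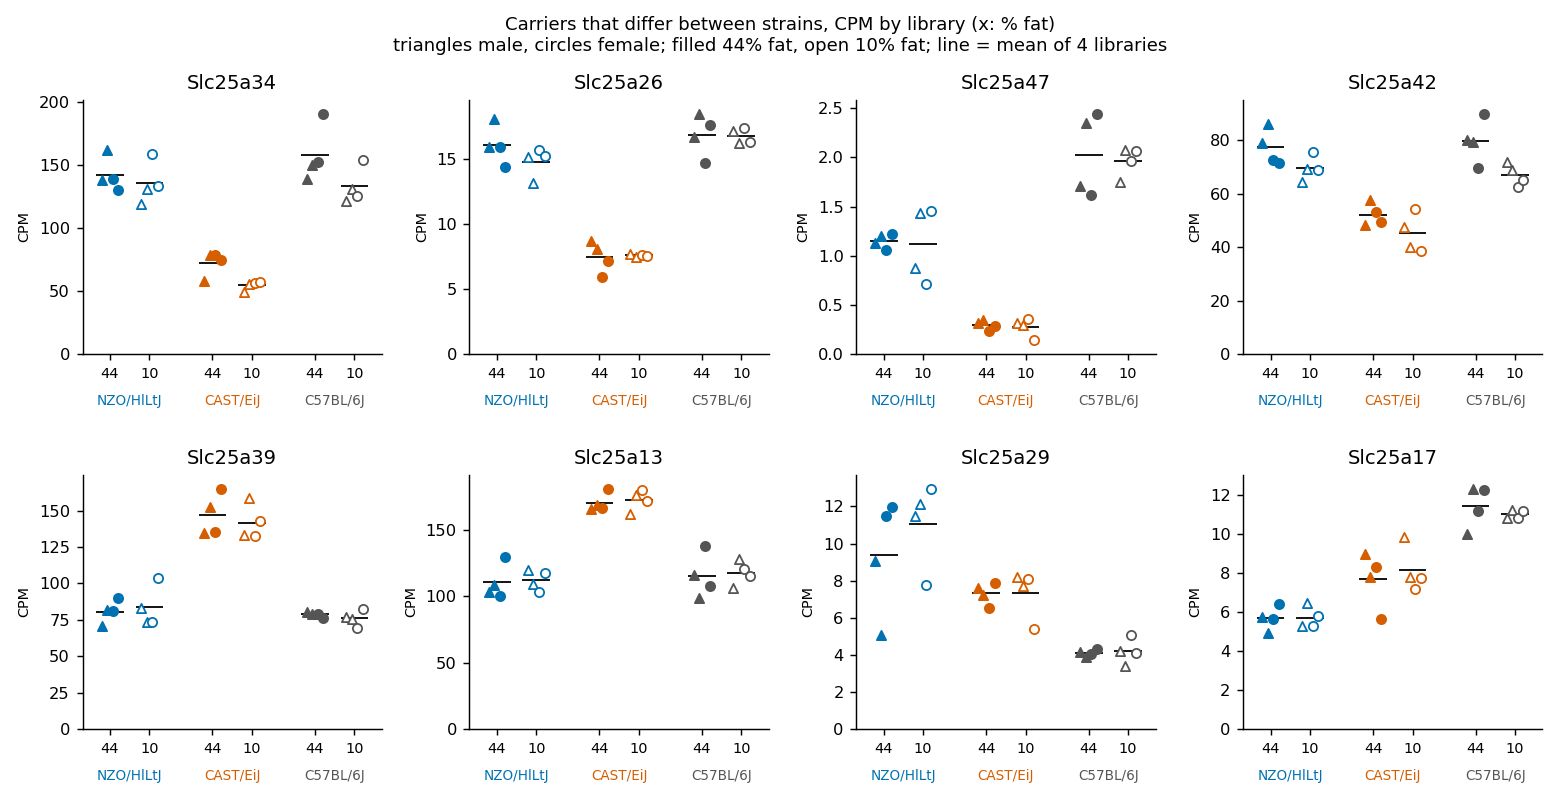
CPM per library of 8 carriers by strain and diet (filled, 44% fat; open, 10% fat; triangles, male; circles, female; line, mean of 4 libraries). The 8 CAST/EiJ libraries sit apart from both other strains in Slc25a34, Slc25a26, Slc25a42, Slc25a39 and Slc25a13, and the 8 C57BL/6J libraries sit above the others in Slc25a47 and Slc25a17.

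Genes that work with these carriers were counted from lists chosen for their roles. Of 28 other mitochondrial transporters tested, 13 were higher and 6 lower in CAST/EiJ against C57BL/6J, 9 higher and 3 lower in NZO/HlLtJ against C57BL/6J, and 8 higher and 12 lower in NZO/HlLtJ against CAST/EiJ. Of all genes 58.8%, 35.5% and 60.3% were called in these comparisons, in either direction. The transporters' median log2 fold change in CAST/EiJ against C57BL/6J was 0.09, beside 0.00 over all genes. Abcb10, a transporter of the inner membrane known from heme-making cells, averaged 47.3 ± 2.94 CPM in NZO/HlLtJ, 74.7 ± 5.96 CPM in CAST/EiJ and 42.4 ± 1.54 CPM in C57BL/6J (SD, n = 8 each). Its log2 fold change was 0.82 (SE 0.04, adjusted p 3.11e-12) in CAST/EiJ against C57BL/6J. Letm1, an ion exchanger of the inner membrane, was also higher in CAST/EiJ, at 0.69 (SE 0.04, adjusted p 3.4e-11). Of the 12 genes tested for import of carriers into the inner membrane, 7 were higher and 1 lower in CAST/EiJ against C57BL/6J, 4 higher and 2 lower in NZO/HlLtJ against C57BL/6J, and 2 higher and 5 lower in NZO/HlLtJ against CAST/EiJ, beside the same 58.8%, 35.5% and 60.3% of all genes called. They included the pore Tomm40, at 0.44 (SE 0.05, adjusted p 2.07e-07) in CAST/EiJ against C57BL/6J, and the carrier translocase Timm22, at 0.54 (SE 0.07, adjusted p 1.83e-06).

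Of 9 enzymes of the malate-aspartate and citrate shuttles, 3 were higher and 1 lower in CAST/EiJ against C57BL/6J, 0 higher and 5 lower in NZO/HlLtJ against C57BL/6J, and 0 higher and 4 lower in NZO/HlLtJ against CAST/EiJ, where 58.8%, 35.5% and 60.3% of all genes were called. Got1, the cytosolic aspartate aminotransferase, averaged 556 ± 21.7 CPM in NZO/HlLtJ, 767 ± 38.5 CPM in CAST/EiJ and 611 ± 12.9 CPM in C57BL/6J (SD, n = 8 each). The log2 fold change was 0.33 (SE 0.03, adjusted p 5.82e-08) in CAST/EiJ and -0.14 (SE 0.03, adjusted p 0.00271) in NZO/HlLtJ against C57BL/6J. Mdh2, the matrix malate dehydrogenase, had 0.25 (SE 0.03, adjusted p 3.3e-07) in CAST/EiJ and -0.12 (SE 0.03, adjusted p 0.00234) in NZO/HlLtJ against C57BL/6J. Citrate synthase (Cs) had -0.21 (SE 0.03, adjusted p 7.02e-06) and -0.15 (SE 0.03, adjusted p 0.000565). Of 18 matrix users of the carried cofactors, 7 were higher and 6 lower in CAST/EiJ against C57BL/6J, 3 higher and 5 lower in NZO/HlLtJ against C57BL/6J, and 2 higher and 5 lower in NZO/HlLtJ against CAST/EiJ, beside the same shares of all genes. Nnt, the proton-driven transhydrogenase, averaged 514 ± 23.2 CPM in NZO/HlLtJ, 721 ± 82.9 CPM in CAST/EiJ and 435 ± 21.4 CPM in C57BL/6J, with 0.73 (SE 0.04, adjusted p 4.64e-11) in CAST/EiJ against C57BL/6J. Counts per gene do not show whether a strain makes a whole transcript or a working protein. Nmnat3, which makes NAD, averaged 4.10 ± 0.444 CPM in NZO/HlLtJ, 8.32 ± 0.891 CPM in CAST/EiJ and 12.9 ± 0.775 CPM in C57BL/6J, with -1.65 (SE 0.07, adjusted p 9.71e-13) in NZO/HlLtJ against C57BL/6J. No gene of the 4 lists was called for diet over all strains, where 0.157% of all genes were called.

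The diet comparisons ask what 44% fat changed against 10% fat over all strains and within each. By edgeR no member was called over all strains (0.157% of all genes were), nor in NZO/HlLtJ (0% of all genes), in CAST/EiJ (0%) or in C57BL/6J (0.0407%). At an unadjusted p under 0.05 there were 7 members over all strains, 5 higher and 2 lower on 44% fat, where 4.33% and 4.48% of all genes were. In NZO/HlLtJ there were 1 higher and 1 lower (3.53% and 3.63% of all genes), in CAST/EiJ 4 higher and 3 lower (3.31% and 3.3%) and in C57BL/6J 2 higher and 0 lower (3.05% and 2.57%). The limma-voom test called no member in any of these, and DESeq2 called 1, Slc25a34, over all strains and in CAST/EiJ. In the order of 2 males and then 2 females, Slc25a34 had 138, 162, 139 and 130.3 CPM in NZO/HlLtJ on 44% fat, against 119, 131, 159 and 134 CPM on 10% fat. It had 58.1, 78.4, 78.7 and 74.3 CPM in CAST/EiJ on 44% fat, against 49.5, 55.4, 56.2 and 57.4 CPM on 10% fat. It had 139, 149.8, 153 and 191 CPM in C57BL/6J on 44% fat, against 121, 131, 125 and 154 CPM on 10% fat. The diets overlapped in NZO/HlLtJ and in C57BL/6J, and in CAST/EiJ all 4 libraries on 44% fat lay above all 4 on 10% fat. Libraries of the 2 diets did not overlap in 0 members in NZO/HlLtJ (3.34% of all genes), in 4 members in CAST/EiJ (2.78%), which were Slc25a34, Slc25a31, Slc25a45 and Slc25a1, and in 2 in C57BL/6J (4.11%), Slc25a25 and Slc25a51.

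The log2 fold change of Slc25a34 for 44% against 10% fat was 0.24 (SE 0.06, adjusted p 0.139) over all strains, 0.07 (SE 0.10, adjusted p 0.902) in NZO/HlLtJ, 0.41 (SE 0.10, adjusted p 0.379) in CAST/EiJ and 0.25 (SE 0.10, adjusted p 0.810) in C57BL/6J by edgeR. DESeq2 gave an adjusted p of 0.00796 over all strains and of 0.0430 in CAST/EiJ. Without 1 CAST/EiJ male on 44% fat (numbered 1) edgeR gave a log2 fold change of 0.27 and an adjusted p of 0.0314 over all strains. Within the identifier ranges the difference was 0.36 in CAST/EiJ in the first, and 0.24 and 0.25 in C57BL/6J in the first and the other 2. In CAST/EiJ outside the first range the diets lie in different ranges and cannot be told apart from them. The coenzyme A carrier Slc25a42 had the next smallest p. It averaged 77.5 ± 6.76 CPM on 44% and 69.6 ± 4.71 CPM on 10% fat in NZO/HlLtJ, 52.1 ± 4.14 and 45.2 ± 7.29 CPM in CAST/EiJ, and 79.8 ± 8.21 and 67.2 ± 4.04 CPM in C57BL/6J (SD, n = 4 each). The diets overlapped in each strain. For 44% against 10% fat its log2 fold change was 0.20 (SE 0.06, adjusted p 0.229) over all strains. Without 1 CAST/EiJ female on 10% fat (numbered 1) it was 0.25 with an adjusted p of 0.0363. Within the first identifier range it was -0.01 in CAST/EiJ and 0.16 in C57BL/6J, and within the other 2 it was 0.33 in C57BL/6J.

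**Figure D4:**
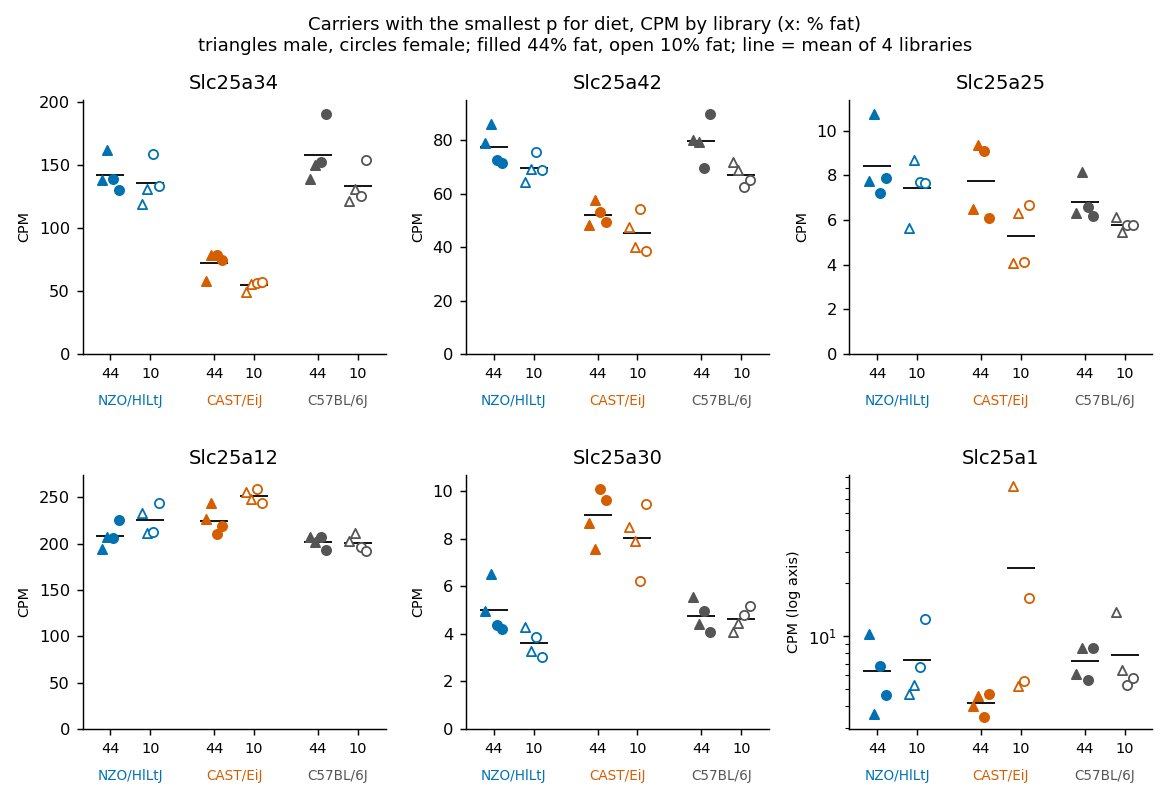
CPM per library of 6 carriers with small unadjusted p for diet, by strain and diet (filled, 44% fat; open, 10% fat; triangles, male; circles, female; line, mean of 4 libraries; log axis for Slc25a1). The diets are apart in CAST/EiJ for Slc25a34 and Slc25a1, where 1 library on 10% fat stands at 71.1 CPM, and overlap in each strain for Slc25a42 and Slc25a30.

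Other members with an unadjusted p under 0.05 by edgeR over all strains had larger p-values than Slc25a34 and Slc25a42, and not all are named here. Slc25a25, a calcium-regulated nucleotide carrier, had a log2 fold change of 0.32 (SE 0.11, adjusted p 0.386), with the diets apart in C57BL/6J but not in the other strains. The uncoupling protein-like Slc25a30 had 0.22 (SE 0.08, adjusted p 0.418). In NZO/HlLtJ, where it had the smallest p of the members, it was at 4.96, 6.53, 4.38 and 4.22 CPM on 44% fat, against 4.28, 3.27, 3.86 and 3.01 CPM on 10% fat (2 males, then 2 females). The log2 fold change there was 0.46 (SE 0.15, adjusted p 0.594). Aralar (Slc25a12) had -0.09 (SE 0.03, adjusted p 0.362) over all strains. In CAST/EiJ it was at 226, 244, 211 and 219 CPM on 44% fat, against 256, 248, 259 and 244 CPM on 10% fat, with -0.16 (SE 0.05, adjusted p 0.615), and in NZO/HlLtJ at -0.11 (SE 0.05, adjusted p 0.684). Slc25a31 had 3, 8, 2 and 1 counts in the CAST/EiJ libraries on 44% fat (males, then females) and 0 in all 4 on 10% fat, 14 counts in all, and no fold is given. The interval of ± 2 SE for diet over all strains was -0.08 to 0.02 for Slc25a3, -0.07 to 0.05 for Slc25a11, -0.13 to 0.08 for Slc25a13 and -0.10 to 0.13 for Slc25a39. It was wider for Slc25a22 (-0.15 to 0.37) and Slc25a37 (-0.63 to 0.30).

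No difference between strains in the diet effect was called for a member by edgeR, DESeq2 or limma-voom. Of all genes, 0.00581% were called for NZO/HlLtJ against C57BL/6J and 0% in the other 2 contrasts. At an unadjusted p under 0.05 edgeR gave 0 members for NZO/HlLtJ against C57BL/6J (4.75% of all genes), 3 of 41 for CAST/EiJ against C57BL/6J (6.53% of all genes) and 4 of 41 for NZO/HlLtJ against CAST/EiJ (4.64% of all genes). The smallest p-values above 1 CPM were those of Slc25a1 in CAST/EiJ against C57BL/6J (difference of log2 fold changes -2.25, SE 0.92, adjusted p 0.745), Slc25a24 in NZO/HlLtJ against CAST/EiJ (0.41, SE 0.16, adjusted p 0.973) and Slc25a30 in NZO/HlLtJ against C57BL/6J (0.43). Slc25a34 had -0.33 (SE 0.14, adjusted p 0.973) in NZO/HlLtJ against CAST/EiJ.

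Slc25a1, which exports citrate for fatty acid synthesis, had 1 library far above the others. On 44% fat it had 10.3, 3.65, 6.79 and 4.67 CPM in NZO/HlLtJ (2 males, then 2 females), against 4.72, 5.27, 6.67 and 12.5 CPM on 10% fat. In CAST/EiJ it had 4.03, 4.56, 3.46 and 4.70 CPM on 44% fat, against 71.1, 5.23, 5.56 and 16.6 CPM on 10% fat, with no overlap. In C57BL/6J it had 6.08, 8.57, 5.62 and 8.62 CPM on 44% fat, against 13.7, 6.44, 5.31 and 5.78 CPM on 10% fat. Over both sexes its log2 fold change for diet in CAST/EiJ was -2.29 (SE 0.66, adjusted p 0.594), and its difference from that in C57BL/6J was -2.25 (SE 0.92, adjusted p 0.745). Without the library at 71.1 CPM the difference was -0.81, with an adjusted p of 0.901. The library at 71.1 CPM, a CAST/EiJ male on 10% fat, also had the highest level of all 24 for Ucp1, the uncoupling protein of brown fat, at 140.3 CPM, where the highest other CAST/EiJ library had 26.6. Of 6 brown adipocyte markers 5 were among the genes listed, and they summed to 42.2 to 73.4 CPM in CAST/EiJ on 44% fat and to 29.6 to 249 CPM on 10% fat. The 8 white adipocyte markers summed to 400 to 556 CPM on 44% fat and 339 to 614 CPM on 10% fat, mostly Fabp4. In the library at 71.1 CPM for Slc25a1, Fabp4 was at 524 CPM (540 in the highest other CAST/EiJ library) and Cfd at 8.33 (10.5). There Plin1 was at 31.0 CPM (6.93), Cidec at 22.2 (8.83) and Adipoq at 16.9 (5.92). Adrb3, Retn and Lep were also above every other CAST/EiJ library there. Of the other brown adipocyte markers, Cidea was at 59.1 CPM in that library, and Cidea, Elovl3 and Otop1 were above every other CAST/EiJ library. Ppargc1b was not, at 27.5 CPM there and 29.8 CPM in the highest other CAST/EiJ library. The carrier Slc25a35 was at 11.2 CPM in the library at 71.1 CPM for Slc25a1, its highest. The part of adipose tissue in these values was not tested.

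Sex was compared as male minus female. No member was called over all strains by edgeR, limma-voom or DESeq2, where edgeR called 0.372% of all genes. At an unadjusted p under 0.05 there were 2 of 41 members, against 8.95% of all genes. The glutathione carrier Slc25a40 averaged 11.9 ± 0.957 CPM in males and 13.6 ± 1.20 CPM in females of NZO/HlLtJ, 9.20 ± 0.623 and 9.38 ± 1.09 CPM in CAST/EiJ, and 8.71 ± 0.191 and 9.62 ± 0.399 CPM in C57BL/6J (SD, n = 4 each). Male minus female, its log2 fold change was -0.13 (SE 0.05, adjusted p 0.460), and that of Slc25a34 was -0.12 (SE 0.06, adjusted p 0.544). No sex-by-strain or sex-by-diet difference was called for a member (0% of all genes in each). Each of these 4 contrasts had 1 of 41 members with an unadjusted p under 0.05, where 4.63% of all genes had one for NZO/HlLtJ against C57BL/6J, 5.95% for CAST/EiJ against C57BL/6J, 8.48% for NZO/HlLtJ against CAST/EiJ and 4.56% for sex by diet. These members were Slc25a3 for NZO/HlLtJ against C57BL/6J, at -0.13 (SE 0.06), and Slc25a32 for CAST/EiJ against C57BL/6J, at 0.27 (SE 0.12). The others were Slc25a46 for NZO/HlLtJ against CAST/EiJ, at -0.16 (SE 0.07), and Slc25a26 for sex by diet, at 0.26 (SE 0.10). In NZO/HlLtJ, females on the control diet and males on the diet higher in fat share an identifier range. The remaining NZO/HlLtJ libraries share another, so sex by diet in that strain cannot be told apart from range. In C57BL/6J outside the first range, males and females lie in different ranges, so sex cannot be told apart from range there.

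Mitoferrin 1 (Slc25a37), which imports the iron that red cell precursors use for heme, varied widely within groups. It had a lowest, median and highest level of 27.9, 41.7 and 94.5 CPM in NZO/HlLtJ, 23.7, 42.2 and 82.6 CPM in CAST/EiJ and 25.1, 31.9 and 42 CPM in C57BL/6J. Summed over 7 erythroid markers, the libraries of NZO/HlLtJ held 4531 to 25767 CPM, those of CAST/EiJ 4316 to 21905 CPM and those of C57BL/6J 2894 to 8789.7 CPM. Across the 24 libraries, log2 Slc25a37 rose with the log2 sum of those markers, with a Pearson r of 0.936 and a Spearman rho of 0.925. Both had a two-sided permutation p of 1e-05, the smallest that 100000 permutations can give, and the Pearson p was 4e-05 after adjustment over the 4 carriers of iron and heme tested in this way. Libraries were permuted regardless of strain, so these p-values also take in differences between strains. Without the 2 libraries farthest from the median of the markers r was 0.911. Within strains r was 0.986 in NZO/HlLtJ, 0.939 in CAST/EiJ and 0.864 in C57BL/6J, with exact permutation p-values of 0.000149, 0.00109 and 0.00662. Within the 3 identifier ranges r was 0.862, 0.965 and 0.897. There rho was 0.667, 0.905 and 0.857, with exact permutation p-values of 0.0831, 0.00456 and 0.0107.

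The other 3 carriers of iron, glutathione or glycine had lower or negative values of r. Permutations over the 24 libraries did not keep to strains, so those p-values also take in differences between strains. Slc25a39 had an r of 0.547 and a rho of 0.685 over 24 libraries (permutation p 0.00658 and 0.000510, the first 0.0132 after adjustment), and an r of 0.508 without the 2 farthest. Within strains its r was 0.901 in NZO/HlLtJ, 0.783 in CAST/EiJ and 0.405 in C57BL/6J (exact permutation p 0.00156, 0.0220 and 0.325), and all 8 CAST/EiJ libraries lay above every library of the other strains. The part of erythroid cells in that strain difference was not tested. Within the 3 identifier ranges r was 0.501, 0.868 and 0.555. Mitoferrin 2 (Slc25a28) had an r of -0.512 and a rho of -0.519 (permutation p 0.0103 and 0.0101, adjusted 0.0137 for the first), and an r of -0.455 without the 2 farthest. It had -0.569, -0.507 and -0.651 within NZO/HlLtJ, CAST/EiJ and C57BL/6J (exact permutation p 0.133, 0.174 and 0.0786), and -0.665, -0.729 and -0.490 within the ranges. The glycine carrier Slc25a38 had an r of -0.197 and a rho of -0.307 (permutation p 0.352 and 0.144, adjusted 0.352 for the first), with -0.214 without the 2 farthest. Within strains it was -0.488 in NZO/HlLtJ, 0.716 in CAST/EiJ and 0.0423 in C57BL/6J (exact permutation p 0.221, 0.0471 and 0.918). Within the ranges it was -0.465, -0.753 and -0.213.

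**Figure D5:**
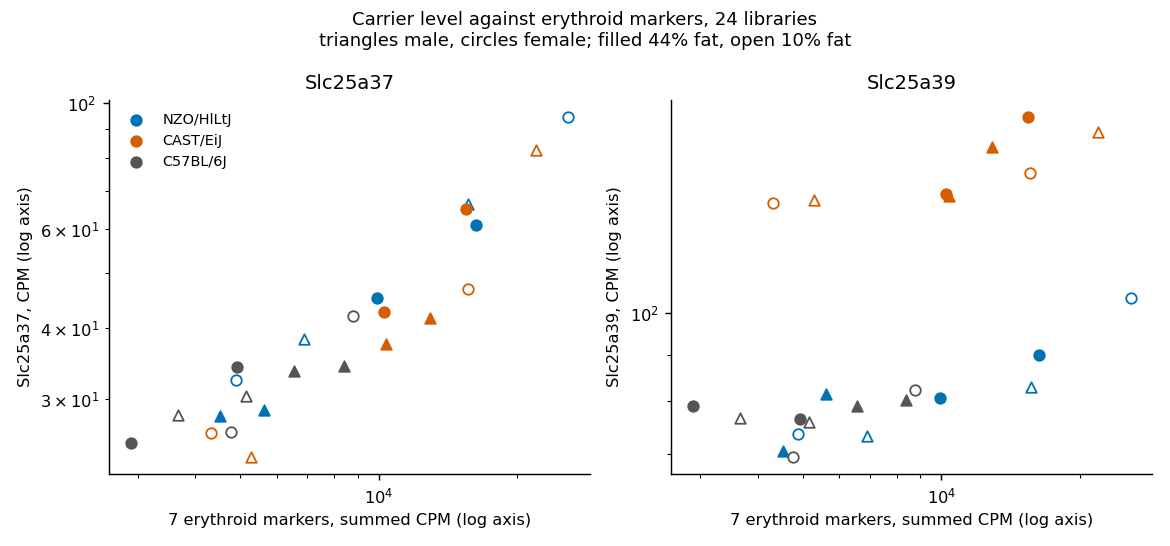
Slc25a37 and Slc25a39 in CPM against the summed CPM of 7 erythroid markers, one point per library, on log axes (filled, 44% fat; open, 10% fat; triangles, male; circles, female). Slc25a37 follows the markers in all 3 strains along a common line (r 0.936), whereas the 8 CAST/EiJ libraries lie above the rest for Slc25a39.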

How the data were processed

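Hearts of 3 strains, both sexes and 2 diets (24 libraries) were sequenced as poly(A) RNA with paired 100-base reads. The authors deposited expected counts per gene, of which 19.3% were not whole (tolerance 1e-06), and log2 values after variance stabilization. Per the submitters' processing notes GRCm38 and DESeq2 were used, with no role given; the sources used here do not name an aligner, a counter, an annotation or the strand handling. Expected counts were rounded to whole numbers. Genes were kept by edgeR's filter (minimum count 10, minimum total 15), leaving 17203 of 20961, and the 12 groups were fitted with edgeR 4.0.16 in R 4.3.3 by robust quasi-likelihood with TMM scaling; p-values were adjusted by the Benjamini-Hochberg method over all genes tested. Diet, strain and sex effects and their differences are contrasts of group means. The script was tested on simulated data. DESeq2 1.42.0 and limma 3.58.1 (limma-voom, and limma on the deposited log2 values) were among the alternatives. Levels per kilobase divide CPM by the GENCODE M21 exon union (GRCm38). Promoter sequences are RefSeq's on GRCm38.p6. Correlations used permutation tests, exact within strains.

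The members and gene lists were chosen with earlier results of these data known. In each strain comparison, the 4 called members of largest fold change per direction at 1 CPM or more on average were named with values. In the other contrasts these were members among those of smallest p. A set of carriers with known heart roles was always named, and of each list up to 3 genes of smallest adjusted p. Replicates of a group are numbered in accession order. Replicate pairs differed by more than counting noise, with chi-square per degree of freedom from 11.6 to 68.4, and all were kept as separate samples. Values of 1 carrier and 1 other gene are not reported here. TMM factors ran from 0.954 to 1.06.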

Additional observations from a re-analysis of the deposited data

Results flagged for a closer look

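Within each group of 4 libraries of 1 strain and diet, 17 values of the carriers stood apart from the other 3 by the gap to the nearest, set against the group's range (Dixon's test), in 216 groups searched (7.87%); chance flags about 1 in 20. All are CPM of single libraries, each with its nearest other library in the group. On 44% fat, Slc25a11 was at 365 in an NZO/HlLtJ female (nearest 326), Slc25a27 at 2.50 in an NZO/HlLtJ male (3.15), Slc25a28 at 5.56 in a CAST/EiJ female (7.76) and Slc25a53 at 2.68 in a CAST/EiJ male (3.38). Also on 44% fat, Slc25a37 was at 25.1 in a C57BL/6J female (33.6) and Slc25a45 at 2.75 in a C57BL/6J male (3.55).

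On 10% fat, 4 values came from 1 CAST/EiJ female, numbered 2: Slc25a24 at 9.46 (nearest 7.63), Slc25a29 at 5.37 (7.73), Slc25a33 at 29.3 (14.2) and Slc25a53 at 2.35 (3.88). Slc25a35 was at 11.2 in the CAST/EiJ male with the highest Slc25a1 and Ucp1 (5.56). In NZO/HlLtJ on 10% fat, Slc25a11 was at 326 in a female (358), Slc25a23 at 48.7 in a male (54.0), and Slc25a32 at 11.9 (9.94) and Slc25a45 at 4.82 (3.46) in another female. In C57BL/6J on 10% fat, Slc25a1 was at 13.7 (6.44) and Slc25a14 at 1.13 (1.75), both in 1 male.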

How the results depend on the processing

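Of 67 called member effects between strains, 0 reversed under 9 other settings or when any 1 of the 24 libraries was left out; 60 stayed called in each other setting, 59 without each library and 58 in all. Leaving out a library gave 23 to 26 members called in CAST/EiJ against C57BL/6J, 12 to 15 in NZO/HlLtJ against C57BL/6J and 26 to 29 in NZO/HlLtJ against CAST/EiJ; the other settings gave 23 to 28, 13 to 17 and 27 to 29. With the identifier range as a block, adjusted p-values for CAST/EiJ against C57BL/6J were 0.0538 for Slc25a15 and 0.0546 for Slc25a22, and for NZO/HlLtJ against C57BL/6J 0.0609 for Slc25a3 and 0.0641 for Slc25a12. Without TMM, Slc25a3 in NZO/HlLtJ against C57BL/6J was at -0.05 (adjusted p 0.150). For diet over all strains DESeq2 called 1 member, and leaving out a library gave 0 to 1; for diet in CAST/EiJ DESeq2 called 1; the cause was not tested. The other settings called 0 for diet, sex and their differences. No paired analysis was possible because the replicate numbers only follow accession order and pair no libraries. The 6 members under 1 CPM are limited by their counts.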
